A study of Mus musculus with 12 samples.

Results

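The nuclear-encoded subunits of the respiratory chain were analysed in mouse heart RNA. The members were the genes whose symbols name a subunit of NADH dehydrogenase (Nduf followed by a, b, c, s or v and a number), succinate dehydrogenase (Sdha to Sdhd), cytochrome bc1 complex (Uqcr and Cyc1), cytochrome c oxidase (Cox4 to Cox8) or ATP synthase (Atp5), without names that contain -ps. There were 89 members among 53465 genes in the table. By function, 38 were placed in complex I, 4 in complex II, 9 in complex III, 21 in complex IV, including Ndufa4 and its relative Ndufa4l2, and 17 in complex V, and 86 of the 89 had enough counts to be tested among 16101 tested genes. RNA came from 12 hearts, 3 mice in each of 4 groups, and the tissue, labelled as heart, is described in the study's text as left ventricular. A17fl/fl mice carried a floxed Adam17 gene, the same allele as their A17α-MHCKO littermates, in which Cre under the cardiomyocyte promoter α-MHC removed exon 2, so other cells of the knockout heart kept the gene. Treatment was either saline (NS) or the anthracycline doxorubicin (DOX), a cancer drug, given in 4 weekly intraperitoneal injections of 5 mg/kg, 20 mg/kg in all for doxorubicin, and the hearts were taken 4 weeks after the last one. The mice were males, 8 weeks old when the injections began. The knockout and floxed groups differed in Cre as well as in Adam17, so an effect of the Cre transgene cannot be told apart from that of the deletion. The comparisons asked how the subunit genes stood after doxorubicin in each genotype, how they stood between the genotypes under each treatment, and whether the doxorubicin difference depended on genotype.

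The respiratory chain sits in the inner mitochondrial membrane. Complexes I and II pass electrons from NADH and succinate to ubiquinone, complex III passes them on to cytochrome c, and complex IV gives them to oxygen. The protons pumped on the way drive ATP synthase, complex V. Most subunits are encoded in the nucleus and imported, while a small core of complexes I, III, IV and V is encoded by mitochondrial DNA, and complex II is wholly nuclear. Heart muscle is among the tissues richest in these complexes, and several subunits of complex IV have a separate isoform for heart and skeletal muscle.

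Levels are compared between genes per length, as FPKM (fragments scaled to gene length and library total). The highest median over the 12 libraries belonged to Cox6a2, the heart and muscle isoform of a small complex IV subunit, at 1692 FPKM. It was followed by Cox8b, another muscle isoform, at 702 FPKM, by Cyc1, the cytochrome c1 of complex III, at 683 FPKM, and by Cox7a1, also a muscle isoform, at 611 FPKM. The beta and alpha subunits of ATP synthase, Atp5b and Atp5a1, which form its catalytic head, stood at 575 and 563 FPKM. At the low end were Cox6b2, known as the testis isoform of Cox6b1, at 0.380 FPKM, Atp5g2, one of the genes for the ATP synthase c subunit, at 2.10 FPKM, and Cox4i2, the hypoxia-responsive isoform of Cox4i1, at 10.2 FPKM against 434 FPKM for Cox4i1. The members without enough counts were Cox8c, with 0 counts in every library, Ndufa11b, with 1 count in 1 library and 0 in the other 11, and Cox7b2, with 2 to 6 counts. Ndufb4 and Ndufb4c, Ndufs6 and Ndufs6b, and Cox6c and Cox6c2 are pairs of close copies, as are several members and the names with -ps, and the division of fragments between such copies is uncertain.

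The promoters of 66 of the 89 members were found in a RefSeq table for GRCm38.p6, as 71 windows from 250 bases before to 50 bases after the start. Both strands were searched for the letters of motifs of factors known to act on respiratory genes. NRF1 (CGCATGCG) was present in 9 of the 71 windows (12.7%) and in 1.87% of all 32851 promoters of that length. YY1 (AAGATGGC) was present in 9 (12.7%) against 2.75% of all, ERR (AAGGTCA) in 8 (11.3%) against 4.72%, and the ETS motif of GABP (CCGGAAGT) in 5 (7.04%) against 3.89%. These 4 windows are shown because Atp5h and Ndufa8 were among the subunits with the smallest p-values after doxorubicin described below, and because Cox8a and Cox8b are isoforms of the same subunit with different patterns over the 12 libraries. Capitals mark a motif on either strand, and sequences read 5′ to 3′ in the direction of the gene. Atp5h lies at chr11:115419870-115420169, minus strand, with 1 ETS motif, Ndufa8 at chr2:36049289-36049588, minus strand, with 1 NRF1 motif, Cox8a at chr19:7217567-7217866, minus strand, with 2 ETS motifs, and Cox8b at chr7:140900397-140900696, minus strand, with none of the letters searched.
Atp5h: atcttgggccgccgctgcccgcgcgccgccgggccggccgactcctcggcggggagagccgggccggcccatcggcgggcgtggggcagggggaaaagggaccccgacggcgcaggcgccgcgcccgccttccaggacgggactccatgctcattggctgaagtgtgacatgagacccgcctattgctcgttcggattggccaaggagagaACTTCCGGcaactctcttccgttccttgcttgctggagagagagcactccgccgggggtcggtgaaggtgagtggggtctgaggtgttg
Ndufa8: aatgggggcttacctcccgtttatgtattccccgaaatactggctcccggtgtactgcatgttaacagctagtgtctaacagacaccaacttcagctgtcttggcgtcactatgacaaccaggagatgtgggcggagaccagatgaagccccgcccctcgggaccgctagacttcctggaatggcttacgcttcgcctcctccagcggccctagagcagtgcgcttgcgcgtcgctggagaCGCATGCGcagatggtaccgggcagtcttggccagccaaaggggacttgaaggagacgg
Cox8a: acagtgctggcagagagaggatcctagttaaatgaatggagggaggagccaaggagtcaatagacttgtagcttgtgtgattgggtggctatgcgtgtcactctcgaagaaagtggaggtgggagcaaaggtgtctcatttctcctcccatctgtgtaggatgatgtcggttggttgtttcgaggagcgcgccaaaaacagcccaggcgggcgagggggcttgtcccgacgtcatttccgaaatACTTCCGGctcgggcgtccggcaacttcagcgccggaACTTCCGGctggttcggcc
Cox8b: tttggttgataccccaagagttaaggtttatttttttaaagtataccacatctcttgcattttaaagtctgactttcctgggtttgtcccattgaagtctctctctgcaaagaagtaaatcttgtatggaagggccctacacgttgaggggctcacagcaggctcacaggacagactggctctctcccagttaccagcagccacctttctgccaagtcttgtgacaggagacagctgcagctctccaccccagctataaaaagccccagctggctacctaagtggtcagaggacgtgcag

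Total counts ran from 15950717 to 21725076 per library. A check of the deletion placed Adam17 at 43.6 to 70.9 CPM (counts scaled to the library total with a trimmed mean of M values factor, TMM) in the 6 floxed libraries and 27.9 to 36.8 in the 6 knockout libraries, with no overlap. Its log2 fold change was -0.64 after saline and -0.63 after doxorubicin, with adjusted p = 0.313 and 0.9998 by edgeR. A pair of libraries stood apart in the subunit genes. In A17α-MHCKO + DOX replicate 1 the value was the highest of the 12 for 77 of the 86 tested members, and the median member was 0.57 above its own mean over the libraries on the log2 scale. In A17fl/fl + NS replicate 1 the value was the lowest of the 12 for 52 members, and the median member was 0.39 below its mean. The other 10 libraries had medians between -0.18 and 0.13. The heat map of members by library shows both columns, across all 5 complexes. In A17fl/fl + NS replicate 1 the 11 cardiomyocyte markers summed to 2.67% of counts, against 4.10% to 5.91% elsewhere, and the 6 neutrophil markers to 0.234%, against 0.000521% to 0.00634%. The 8 fibroblast markers summed to 0.914% of counts there, against 0.129% to 0.325%. In A17α-MHCKO + DOX replicate 1 the genes of the cytosolic ribosome summed to 1.68% of counts, against 0.735% to 1.496% in the other 11 libraries, and the correlation of a gene's deviation with gene length was -0.31 over all 16101 tested genes, against -0.07 to 0.13 elsewhere, a description across genes, which are not independent. Their part in the results was not tested. The members' counts in each comparison are also given without the library that enters it, as are some values of named genes. Leaving out both together was a choice made after the data were seen.

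**Figure D1:**
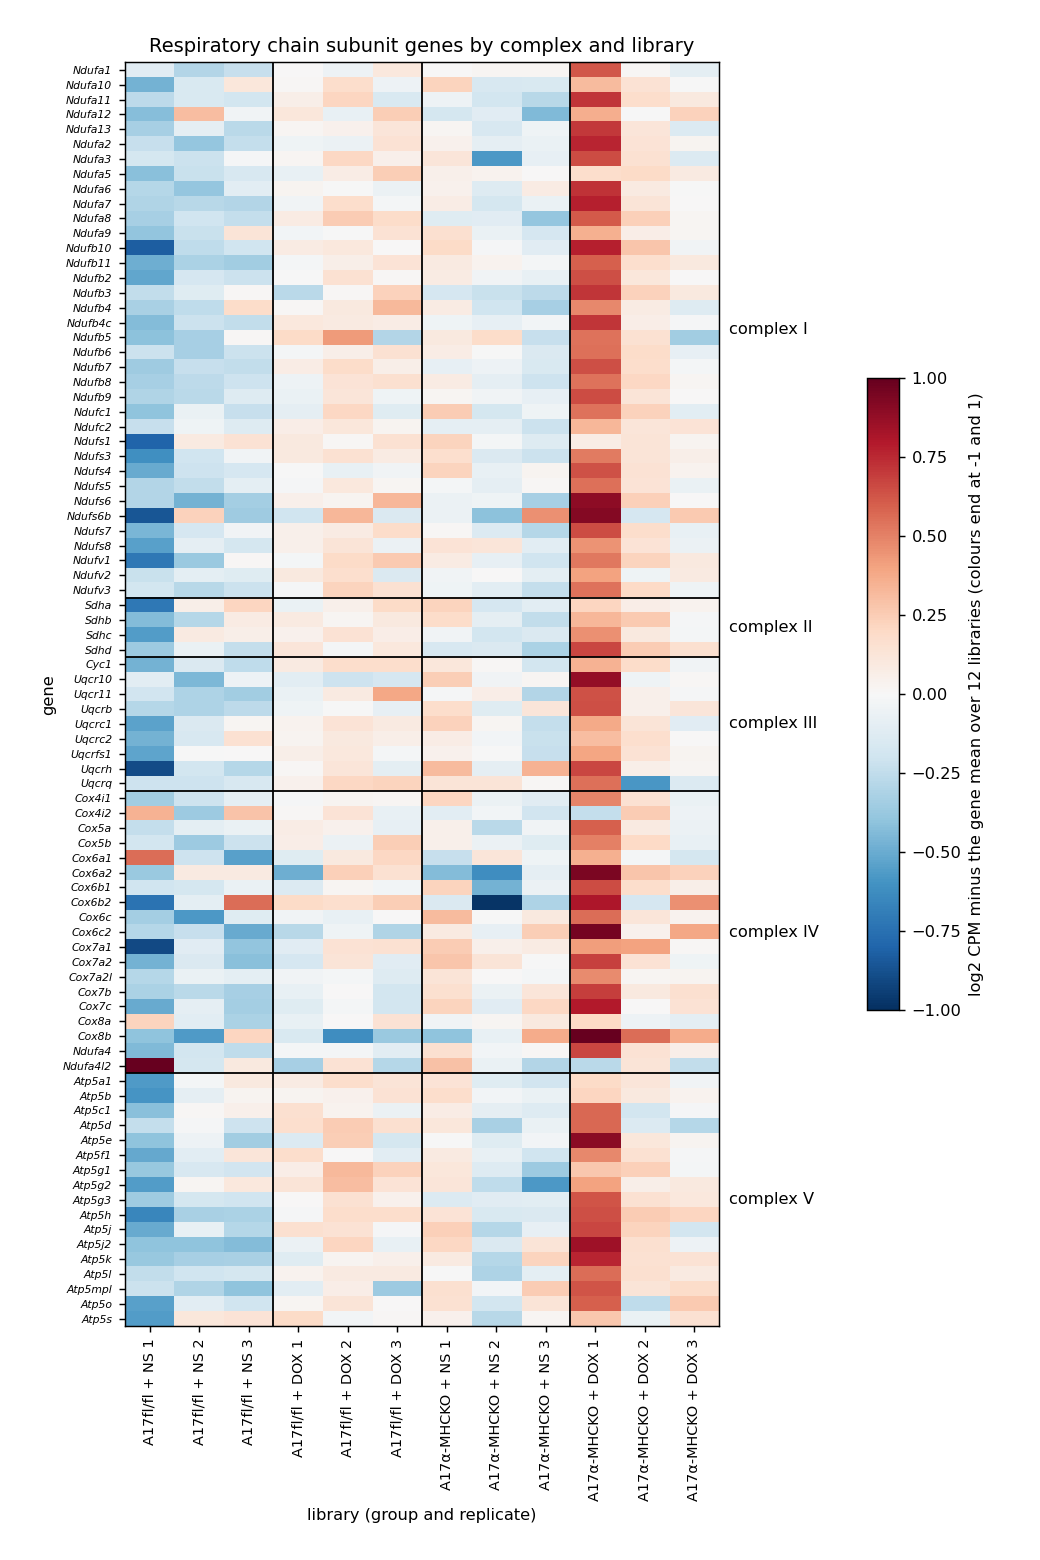
Heat map of 85 of the 86 tested subunit genes (rows, grouped by complex) in the 12 libraries (columns, by group and replicate), coloured by log2 CPM minus the mean of the gene over the 12 libraries. A17α-MHCKO + DOX replicate 1 was the highest library for 77 of the 86 tested genes and A17fl/fl + NS replicate 1 the lowest for 52.

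The summed share of the 89 members was also highest in A17α-MHCKO + DOX replicate 1 and lowest in A17fl/fl + NS replicate 1. It was 2.77%, 3.25% and 3.12% of counts in A17fl/fl + NS (mean 3.05% ± 0.247, SD, n = 3) and 3.57%, 3.83% and 3.75% in A17fl/fl + DOX (3.72% ± 0.135, n = 3). In A17α-MHCKO hearts it was 3.66%, 3.55% and 3.58% after saline (3.60% ± 0.0558, n = 3) and 4.84%, 3.75% and 3.56% after doxorubicin (4.05% ± 0.692, n = 3). The A17fl/fl + NS hearts had the 3 lowest shares of the 12, and 1 heart of the A17α-MHCKO + DOX group accounted for most of the spread in its group. With TMM scaling the A17fl/fl + NS hearts were no longer the 3 lowest. The summed CPM of A17fl/fl + NS replicate 3 was 34184, above 33338 and 33231 in A17α-MHCKO + NS replicates 2 and 3. In whole tissue, fewer cells of a type and less RNA per cell cannot be told apart.

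After doxorubicin in A17fl/fl hearts, 83 of 86 tested members had a positive log2 fold change over saline, with a median of 0.26, while 44.5% of all 16101 tested genes were positive and their median was -0.04. By edgeR's quasi-likelihood test with Benjamini-Hochberg adjustment, 0 members had an adjusted p under 0.05 (0% of all genes), and the smallest adjusted p was 0.358. DESeq2, limma voom and the likelihood ratio test also called 0 members in this and the other 4 comparisons. At an unadjusted p under 0.05, 13 members were higher and 0 lower, 15.1% and 0% of the members, against 4.11% and 6.58% of all genes (10.7% in both directions). In 48 members every DOX heart was above every NS heart, against 7.15% of all genes, and in 0 every DOX heart was below, against 6.11%. By complex, the groups did not overlap in 25 of 37 members of complex I, 1 of 4 of complex II, 6 of 9 of complex III, 5 of 19 of complex IV and 11 of 17 of complex V. Without A17fl/fl + NS replicate 1 the groups did not overlap in 50 members, higher in each, against 14.7% of all genes, and 77 members were positive with a median of 0.20, 10 of them at an unadjusted p under 0.05 (4.63% of all genes higher). The 13 members at an unadjusted p under 0.05 were 8 without A17fl/fl + NS replicate 2, 6 without A17fl/fl + DOX replicate 2 and 5 without A17fl/fl + DOX replicate 3, against 9.07%, 2.61% and 2.81% of all genes higher.

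Atp5h, subunit d of the ATP synthase stalk, had the smallest p of all members in this comparison. It stood at 209, 262 and 264 CPM in A17fl/fl + NS, 325, 372 and 371 in A17fl/fl + DOX, 361, 296 and 297 in A17α-MHCKO + NS and 514, 391 and 381 in A17α-MHCKO + DOX. Each A17fl/fl + DOX value lay above each A17fl/fl + NS value, a log2 fold change of 0.54 ± 0.16 (SE), with adjusted p = 0.358 by edgeR. Atp5g1, a gene for the c subunit that forms the rotor ring, stood at 335, 390 and 382 CPM after saline and 459, 548 and 514 after doxorubicin in A17fl/fl hearts. Its log2 fold change was 0.46 ± 0.16 (adjusted p = 0.398). Ndufb11, an accessory subunit of the membrane arm of complex I, stood at 252, 286 and 279 CPM in A17fl/fl + NS, 349, 370 and 391 in A17fl/fl + DOX, 378, 363 and 349.5 in A17α-MHCKO + NS and 537, 399 and 379.5 in A17α-MHCKO + DOX. The 3 A17fl/fl + NS hearts were thus the lowest of the 12, and doxorubicin over saline gave 0.44 ± 0.15 in A17fl/fl hearts (adjusted p = 0.388). Cyc1 stood at 561, 706 and 653 CPM in A17fl/fl + NS and 829, 881 and 879 in A17fl/fl + DOX, without overlap, a log2 fold change of 0.43 ± 0.15 (adjusted p = 0.406). In complex II the smallest p belonged to Sdhd, a membrane anchor, with 297, 366 and 324 CPM in A17fl/fl + NS, 416, 379 and 412 in A17fl/fl + DOX, 344, 346 and 307 in A17α-MHCKO + NS and 610.0, 456 and 429 in A17α-MHCKO + DOX. The 3 A17fl/fl + DOX hearts were above the 3 A17fl/fl + NS hearts by 0.29 ± 0.16 (adjusted p = 0.526). The values of Atp5h, Atp5g1, Ndufb11, Cyc1 and Sdhd were 0.43, 0.39, 0.39, 0.34 and 0.22 without A17fl/fl + NS replicate 1.

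The remaining named member in complex IV was Cox7a1, at 208, 361 and 297 CPM in A17fl/fl + NS, 361, 430 and 434 in A17fl/fl + DOX, 466, 404 and 412 in A17α-MHCKO + NS and 521, 515 and 394 in A17α-MHCKO + DOX. The DOX and NS groups of A17fl/fl overlapped by less than 1 CPM, and the log2 fold change of 0.50 ± 0.20 (adjusted p = 0.432) was 0.31 without A17fl/fl + NS replicate 1. Ndufa4l2, a relative of the complex IV subunit Ndufa4 that is induced under hypoxia, was lower, at -0.55 ± 0.29 (adjusted p = 0.515). Its 3 saline values in A17fl/fl hearts were 49.98, 21.96 and 26.5 CPM and its doxorubicin values 19.7, 27.3 and 20.3, so that the groups overlapped and 1 heart set the difference, which was -0.11 without it. The other members below 0 were Cox8b at -0.16 ± 0.27 and Cox4i2 at -0.10 ± 0.20, with adjusted p = 0.853 and 0.885, and both groups overlapped in each.

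In A17α-MHCKO hearts doxorubicin gave a median log2 fold change of 0.27, with 83 of 86 members positive, against 0.00 and 50.5% over all tested genes. By edgeR 0 members had an adjusted p under 0.05 (0% of all genes), with a smallest adjusted p of 0.666. At an unadjusted p under 0.05, 16 members were higher (18.6%, against 3.97% of all genes) and 0 lower (against 2.44%, and 6.42% in both directions). In 20 members the groups did not overlap, higher in each, against 9.16% of all genes, and 0 were lower, against 7.79%. These were 12 of complex I, 2 of complex II, 0 of complex III, 2 of complex IV and 4 of complex V. Without A17α-MHCKO + DOX replicate 1 the median was 0.10, with 68 members positive and 5 higher at an unadjusted p under 0.05 (1.76% of all genes), while 20 members did not overlap in the higher and 2 in the lower direction, against 13% and 11.6% of all genes. The 16 members at an unadjusted p under 0.05 were 9 without A17α-MHCKO + NS replicate 2, 8 without A17α-MHCKO + NS replicate 3 and 34 without A17α-MHCKO + DOX replicate 3, against 3.52%, 1.96% and 4.57% of all genes higher.

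Sdhd had the smallest p in this comparison, with all 3 A17α-MHCKO + DOX hearts above the 3 A17α-MHCKO + NS hearts, a log2 fold change of 0.59 ± 0.16 (adjusted p = 0.666 by edgeR) that was 0.41 without replicate 1 of the DOX group. Cox6a2, the most abundant member, stood at 859, 1178 and 1183 CPM in A17fl/fl + NS, 793, 1308 and 1234 in A17fl/fl + DOX, 821, 720.1 and 1041 in A17α-MHCKO + NS and 2127, 1343 and 1300 in A17α-MHCKO + DOX. The A17α-MHCKO groups did not overlap, and the log2 fold change between them was 0.89 ± 0.26 (adjusted p = 0.695), or 0.62 without A17α-MHCKO + DOX replicate 1. Ndufb3, an accessory subunit of complex I, stood at 73.5, 79.8 and 87.5 CPM in A17fl/fl + NS, 72.3, 87.8 and 102 in A17fl/fl + DOX, 77.6, 74.5 and 72.5 in A17α-MHCKO + NS and 143, 102 and 93.0 in A17α-MHCKO + DOX. Its A17α-MHCKO groups did not overlap, at 0.59 ± 0.18 (adjusted p = 0.695), whereas its A17fl/fl groups overlapped, at 0.12 ± 0.18. Without A17α-MHCKO + DOX replicate 1 the former value was 0.38. Ndufa8, whose promoter is printed above, was at 0.51 ± 0.16 (adjusted p = 0.705) and without overlap, from 239.6, 240.3 and 199 CPM after saline to 399, 308 and 264 after doxorubicin. Atp5l, subunit g of ATP synthase, was the first of complex V at 0.42 ± 0.14 (adjusted p = 0.705), and Uqcr11, a small subunit, the first of complex III at 0.33 ± 0.19 (adjusted p = 0.824). Without A17α-MHCKO + DOX replicate 1, Ndufa8 was at 0.34, Atp5l at 0.26 and Uqcr11 at 0.09. The members with negative values were Ndufa4l2 at -0.11 ± 0.29, Uqcrq, a small subunit of complex III, at -0.07 ± 0.23, and Cox8a at -0.01 ± 0.15. Uqcrq stood at 569, 569 and 526 CPM after saline and 762.2, 349 and 473 after doxorubicin, so that its A17α-MHCKO + DOX hearts spread above and below the saline hearts.

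**Figure D2:**
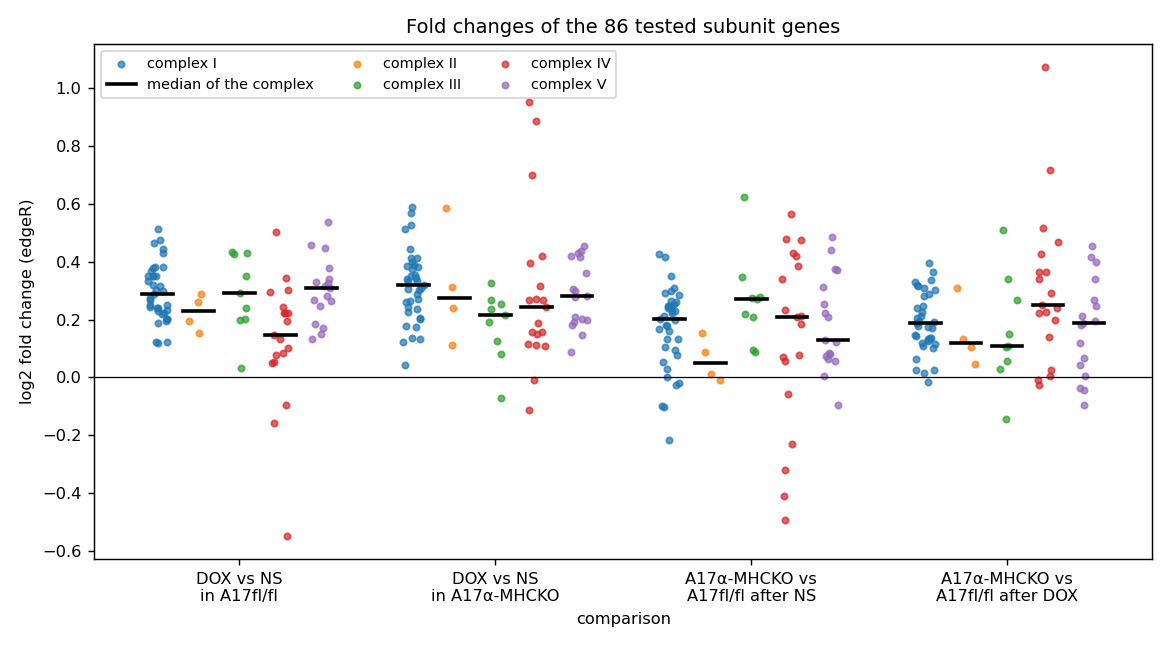
Log2 fold changes of the 86 tested members (points, 1 per gene, edgeR) by complex (colour) in the 4 comparisons between groups, with the median of each complex as a black bar and a line at 0. Most points lie above 0 in each comparison, with 83, 83, 74 and 79 of 86 positive, and complex IV has the widest range, from -0.55 to 1.07.

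Between the genotypes after saline, 74 of 86 members were higher in A17α-MHCKO, with a median log2 fold change of 0.21, against 45.5% of all tested genes and a median of -0.03. Both this comparison and that of doxorubicin in A17fl/fl hearts used the same A17fl/fl + NS hearts. By edgeR 0 members had an adjusted p under 0.05 (0.0186% of all genes), with a smallest adjusted p of 0.370. At an unadjusted p under 0.05, 10 members were higher (11.6%, against 3.61% of all genes) and 0 lower (against 6.53%, and 10.1% in both directions). The groups did not overlap in 31 members, higher in each, against 5.52% of all genes (5.34% lower), and these were 14 of complex I, 0 of complex II, 4 of complex III, 8 of complex IV and 5 of complex V. Without A17fl/fl + NS replicate 1 the median was 0.13 and 63 members were positive. At an unadjusted p under 0.05, 4 were then higher (4.58% of all genes) and 1 lower (927 of 16406 genes). In that setting 34 members did not overlap in the higher and 6 in the lower direction, against 13% and 12.3% of all genes. The 10 members at that limit were 1 without A17α-MHCKO + NS replicate 1 and 5 without A17α-MHCKO + NS replicate 3, against 2.98% and 2.67% of all genes higher.

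Cox7a1 had the smallest p, at 0.57 ± 0.20 (adjusted p = 0.370 by edgeR), with all 3 A17α-MHCKO + NS hearts above the 3 A17fl/fl + NS hearts, and 0.38 without A17fl/fl + NS replicate 1. Uqcrh, the hinge protein of complex III, which binds cytochrome c1, stood at 199, 326 and 303 CPM in A17fl/fl + NS, 373, 402 and 345 in A17fl/fl + DOX, 459.6, 347 and 469.5 in A17α-MHCKO + NS and 588, 385 and 376 in A17α-MHCKO + DOX. The 3 A17fl/fl + NS hearts were the lowest of the 12, and the knockout against floxed difference after saline was 0.62 ± 0.23 (adjusted p = 0.391). Cox6c, a small complex IV subunit, stood at 293, 249 and 342 CPM in A17fl/fl + NS and 463, 371 and 397 in A17α-MHCKO + NS, without overlap, at 0.48 ± 0.17 (adjusted p = 0.391). Atp5mpl, a small subunit of ATP synthase, stood at 167, 157 and 146 CPM in A17fl/fl + NS, 180.3, 203 and 150.5 in A17fl/fl + DOX, 217, 190 and 231 in A17α-MHCKO + NS and 300.1, 212 and 219.7 in A17α-MHCKO + DOX. All 6 knockout hearts were above the A17fl/fl + NS hearts, and the difference after saline was 0.44 ± 0.17 (adjusted p = 0.412). Ndufb11 was 0.42 ± 0.15 higher without overlap (adjusted p = 0.376), and in complex II the smallest p belonged to Sdhb, the iron-sulfur subunit, at 0.15 ± 0.17 (adjusted p = 0.807) with overlap, and 0.04 without A17fl/fl + NS replicate 1. On the lower side were Ndufa4l2 at -0.41 ± 0.29, Cox6a2 at -0.32 ± 0.26 and Ndufa12, an accessory subunit of complex I, at -0.22 ± 0.19, with adjusted p = 0.649, 0.698 and 0.727, and the groups overlapped in all 3. The values of Uqcrh, Ndufb11, Ndufa4l2 and Ndufa12 were 0.43, 0.36, 0.03 and -0.39 without A17fl/fl + NS replicate 1.

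After doxorubicin, 79 of 86 members were higher in A17α-MHCKO than in A17fl/fl hearts, with a median log2 fold change of 0.19, against 51.1% of all tested genes and a median of 0.01. The hearts of this comparison are also the DOX hearts of the doxorubicin comparisons above. By edgeR 0 members had an adjusted p under 0.05 (0.00621% of all genes), and the smallest adjusted p was 0.9998. At an unadjusted p under 0.05, 6 members were higher (6.98%, against 1.52% of all genes) and 0 lower (against 1.19%, and 2.7% in both directions), and of these 4 belonged to complex IV, 1 to complex III and 1 to complex V. The groups did not overlap in 16 members, higher in each, against 6.96% of all genes (7.13% lower), of which 8 were in complex IV, 2 in complex I, 1 in complex II, 2 in complex III and 3 in complex V. Without A17α-MHCKO + DOX replicate 1 the median was 0.03 and 51 members were positive, and 16 members did not overlap in the higher and 4 in the lower direction, against 10.6% and 10.7% of all genes. In that setting 2 members were higher (0.655% of all genes) and 2 lower (106 of 16499 genes) at an unadjusted p under 0.05. Without A17fl/fl + DOX replicate 1 or 3 there were 3 higher, against 0.982% and 0.897% of all genes, without replicate 2 of that group 4, against 1.15%, and without A17α-MHCKO + DOX replicate 3 there were 24, against 2.09%.

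Cox8b stood first among the members by p. It was at 200.3, 179 and 307 CPM in A17fl/fl + NS, 238, 172 and 205 in A17fl/fl + DOX, 200.01, 252 and 344 in A17α-MHCKO + NS and 559, 391 and 344 in A17α-MHCKO + DOX. All 3 A17α-MHCKO + DOX hearts were above the other 9, but by less than 1 CPM over the highest A17α-MHCKO + NS heart. The knockout against floxed log2 fold change after doxorubicin was 1.07 ± 0.27 (adjusted p = 0.9998 by edgeR), and it was 0.84 without A17α-MHCKO + DOX replicate 1. It was the 1 member within the limits used in the study's methods (absolute log2 fold change over 1, unadjusted p under 0.05 and mean FPKM over 1 in a group), which 0.288% of genes at that expression level met. In the other comparisons between groups 0 members met them, against 3.86% of genes for doxorubicin in A17fl/fl, 0.915% for doxorubicin in A17α-MHCKO and 4.07% for the genotypes after saline. Cox6c2, a close copy of Cox6c, stood at 19.2, 19.9 and 16.4 CPM in A17fl/fl + NS, 19.3, 22.7 and 19.0 in A17fl/fl + DOX, 24.9, 22.1 and 27.8 in A17α-MHCKO + NS and 45.4, 24.1 and 30.7 in A17α-MHCKO + DOX. The genotypes did not overlap after doxorubicin, at 0.72 ± 0.21 (adjusted p = 0.9998), or 0.43 without A17α-MHCKO + DOX replicate 1. Atp5mpl was at 0.46 ± 0.17 (0.28 without that library), also without overlap, as was Uqcr10, a small subunit of complex III, at 0.51 ± 0.23. Uqcr10 stood at 249, 232 and 239 CPM in A17fl/fl + DOX and 494, 260.0 and 271 in A17α-MHCKO + DOX, so that 1 heart lay far above the rest, and without it the fold change was 0.15. Sdhd was at 0.31 ± 0.16 without overlap and Ndufb3 at 0.37 ± 0.18 with overlap, or 0.14 and 0.16 without A17α-MHCKO + DOX replicate 1. The lowest values by p were those of Uqcrq at -0.14 ± 0.23, Atp5d, the delta subunit of ATP synthase, at -0.09 ± 0.21 and Atp5g1 at -0.05 ± 0.16, all with overlapping groups. Uqcrq was at -0.50 and Atp5d at -0.40 without A17α-MHCKO + DOX replicate 1.

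**Figure D3:**
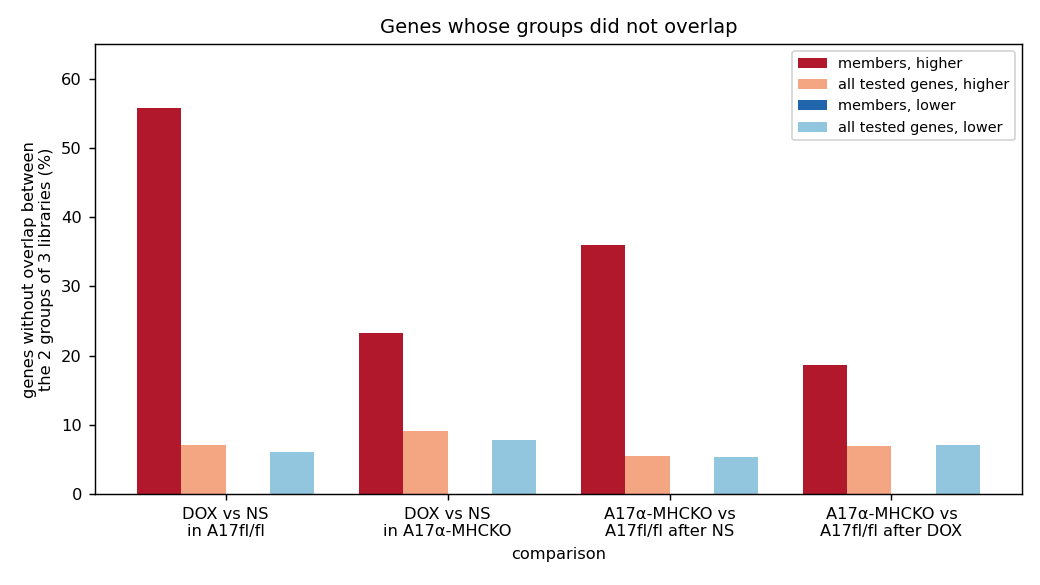
Share of genes (%) whose 2 groups of 3 libraries did not overlap, for the 86 tested members (dark bars) and all 16101 tested genes (light bars), higher (red) and lower (blue), in each comparison. The members' higher bars reach 55.8%, 23.3%, 36% and 18.6%, and their lower bars are at 0%.

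The doxorubicin difference in A17α-MHCKO hearts minus that in A17fl/fl hearts had a median of 0.02 over the members, with 47 of 86 positive, against 0.06 and 56.3% over all tested genes. By edgeR 0 members had an adjusted p under 0.05 for this interaction (0% of all genes), with a smallest adjusted p of 0.828, and at an unadjusted p under 0.05 there were 2 higher (2.33%, against 3.5% of all genes) and 0 lower (against 2.49%, and 5.99% in both directions). Both were muscle isoforms of complex IV, Cox8b at 0.86 ± 0.38 and Cox6a2 at 0.83 ± 0.36. The largest negative values by p were those of Uqcrq at -0.42 ± 0.32, Ndufa5, a peripheral-arm subunit of complex I, at -0.23 ± 0.18, and Cox7a1 at -0.34 ± 0.28. The first members of the other complexes were Ndufb3 at 0.47 ± 0.25, Sdhd at 0.30 ± 0.22 and Atp5g1 at -0.17 ± 0.22. The values of Cox6a2, Ndufb3, Sdhd and Uqcrq were 0.57, 0.26, 0.13 and -0.78 without A17α-MHCKO + DOX replicate 1. Ndufa5 and Cox7a1 were each at -0.15 without A17fl/fl + NS replicate 1. The median of the members was -0.18 without A17α-MHCKO + DOX replicate 1, with 13 of 86 positive, against 54.1% of all genes. Without A17fl/fl + NS replicate 1 alone it was 0.07, with 61 positive, against 52.2% of all genes. Leaving out both libraries that stood apart gave -0.12, with 23 positive, against 49% of all genes. At an unadjusted p under 0.05, 1 member was then higher (3.26% of all genes) and 4 lower, against 1012 of 16356 genes in both directions. The direction of so small a median was not stable. Without A17α-MHCKO + NS replicate 2 there were 34 of 86 positive, without A17fl/fl + NS replicate 3 there were 36, and by limma voom 34. Of all genes, 54.1%, 53.5% and 50.9% were positive in these settings. By contrast, 67 were positive without A17α-MHCKO + DOX replicate 3, against 56.1% of all genes. At an unadjusted p under 0.05 there were 0 to 3 higher members when each library was left out in turn, against 2.12% to 7.15% of all genes. Scaling mattered too, since 20 of 86 members were positive when libraries were scaled by total counts, against 46% of all genes.

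Compared by complex, the median log2 fold changes after doxorubicin in A17fl/fl hearts were 0.29 in complex I, 0.23 in complex II, 0.29 in complex III, 0.15 in complex IV and 0.31 in complex V. In A17α-MHCKO hearts they were 0.32, 0.28, 0.22, 0.24 and 0.28. Between the genotypes after saline they were 0.20, 0.05, 0.27, 0.21 and 0.13, and after doxorubicin 0.19, 0.12, 0.11, 0.25 and 0.19. All 37 tested members of complex I and all 17 of complex V were positive after doxorubicin in both genotypes. Without A17α-MHCKO + DOX replicate 1 the medians in A17α-MHCKO hearts were 0.10, 0.17, 0.03, 0.06 and 0.12, with 34 of 37 members positive in complex I and 13 of 17 in complex V. In that setting the genotypes differed after doxorubicin by medians of 0.01, 0.03, 0.03, 0.10 and -0.01, with 21 of 37 members of complex I and 8 of 17 of complex V positive. Left out of the saline hearts, A17fl/fl + NS replicate 1 moved the medians for doxorubicin in A17fl/fl hearts to 0.22, 0.08, 0.24, 0.16 and 0.23, with 34 of 37 members of complex I and 16 of 17 of complex V positive. The medians between the genotypes after saline became 0.14, -0.10, 0.25, 0.24 and 0.06, so that complex II turned below 0. No test of a difference between complexes was made.

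The 20 core and catalytic subunits were all positive after doxorubicin in both genotypes, with medians of 0.28 and 0.24. Without A17fl/fl + NS replicate 1 there were 17 of 20 positive in A17fl/fl hearts with a median of 0.15, and without A17α-MHCKO + DOX replicate 1 there were 18 of 20 positive in A17α-MHCKO hearts, also with a median of 0.15. The largest value in A17fl/fl hearts was that of Ndufv1, the NADH-binding subunit of complex I. It stood at 218, 277 and 361 CPM in A17fl/fl + NS and 353, 408 and 429 in A17fl/fl + DOX, which overlapped, at 0.48 ± 0.19 (adjusted p = 0.433). Ndufs3, a core subunit of the peripheral arm, was at 0.38 ± 0.18, without overlap. Ndufs7 was at 0.31, Ndufs8 at 0.30, Ndufs1 at 0.22 and Ndufv2 at 0.19. In complex II, Sdha, the flavoprotein that oxidizes succinate, was at 0.15 ± 0.22, from 673, 1153 and 1281 CPM to 1055, 1142 and 1259, and Sdhc, a membrane anchor, at 0.20 ± 0.19. In complex III, the core proteins Uqcrc1 and Uqcrc2 were at 0.29 ± 0.19 and 0.20 ± 0.17 and the Rieske protein Uqcrfs1 at 0.20 ± 0.17. Atp5a1 and Atp5b were at 0.27 ± 0.18 and 0.27 ± 0.17. Atp5b was at 2576, 3629 and 3949 CPM after saline and 3951, 3989 and 4274 after doxorubicin in A17fl/fl hearts. Its groups did not overlap, by a margin of less than 2 CPM. The c subunit genes Atp5g2 and Atp5g3 were at 0.32 ± 0.25 and 0.31 ± 0.16. Many of these values were smaller without A17fl/fl + NS replicate 1. In complex I, Ndufv1 was then at 0.31, Ndufs3 at 0.23, Ndufs7 at 0.20, Ndufs8 at 0.17 and Ndufs1 at -0.03. In complex II, Sdha was at -0.08 and Sdhc at 0.01, and in complex III, Uqcrc1 was at 0.15, Uqcrc2 at 0.05 and Uqcrfs1 at 0.04. In ATP synthase, Atp5a1 was at 0.09, Atp5b at 0.10 and Atp5g2 at 0.13. Between the genotypes, the core subunits had medians of 0.11 after saline and 0.11 after doxorubicin, with 17 of 20 positive in each. These were 0.01 with 10 positive without A17fl/fl + NS replicate 1 and -0.01 with 7 positive without A17α-MHCKO + DOX replicate 1.

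Isoform use in complex IV was compared as the ratio of the FPKM of 2 genes within a library. Cox8b to Cox8a was 2.05, 2.31 and 4.58 in A17fl/fl + NS, 3.00, 2.05 and 2.22 in A17fl/fl + DOX, 2.45, 2.98 and 3.84 in A17α-MHCKO + NS and 5.84, 4.85 and 4.41 in A17α-MHCKO + DOX. Over 6 knockout and 6 floxed hearts the mean log2 ratio differed by 0.59 with p = 0.0498 by a two-sided exact permutation test, and with an adjusted p of 0.303 over the 10 tests of 5 ratios it did not pass. In the A17α-MHCKO + DOX group 2 of the 3 ratios were above those of the other 9 hearts, and the remaining one was below that of A17fl/fl + NS replicate 3. Cox8a itself was at 102 to 148 CPM over the 12 libraries, with log2 fold changes from -0.01 to 0.08 in the 4 comparisons between groups. Cox6a2 to Cox6a1 was 9.04, 21.1 and 26.7 in A17fl/fl + NS, 13.4, 18.9 and 16.6 in A17fl/fl + DOX, 14.9, 10.3 and 16.6 in A17α-MHCKO + NS and 25.8, 21.1 and 22.7 in A17α-MHCKO + DOX. The A17α-MHCKO + DOX hearts were above the A17fl/fl + DOX and A17α-MHCKO + NS hearts, but 2 A17fl/fl + NS hearts lay in or above their range, and the treatment difference was 0.33 (adjusted p = 0.469, exact permutation test). Cox7a1 to Cox7a2 ran from 1.90 to 3.09 and Ndufa4l2 to Ndufa4 from 0.0399 to 0.210, with A17fl/fl + NS replicate 1 at the high end of the latter. Cox4i2 to Cox4i1 ran from 0.0147 to 0.0394. The adjusted p-values of these other 3 ratios lay between 0.303 and 0.913 by the exact test. The remaining isoforms of the named set were Cox6b1, at 0.10 ± 0.20 after doxorubicin in A17fl/fl and 0.39 ± 0.20 in A17α-MHCKO hearts, Cox7a2l, a supercomplex factor, at 0.08 ± 0.15 and 0.15 ± 0.15, and Cox7b, at 0.22 ± 0.16 and 0.27 ± 0.16. Cox6b2 was at 0.475 to 1.89 CPM, and its log2 fold change of 0.95 ± 0.43 in A17α-MHCKO hearts rests on low counts.

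**Figure D4:**
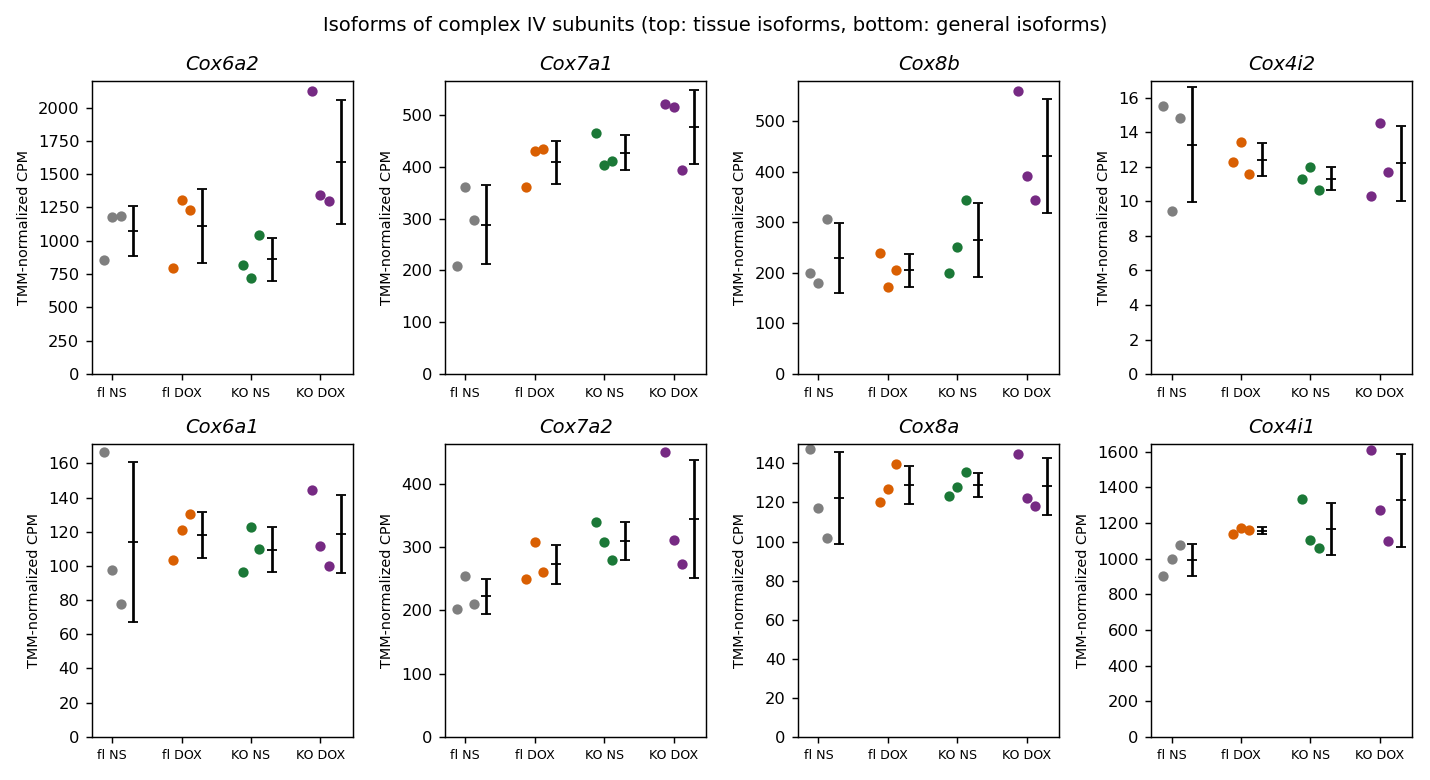
TMM-normalized CPM of 8 complex IV subunit genes in the 12 libraries (points, replicates 1 to 3 from left to right, fl for A17fl/fl and KO for A17α-MHCKO), with group mean and SD (n = 3) as black marks, the tissue isoforms above and the general isoforms below, each axis starting at 0. Cox8b was at 559, 391 and 344 CPM in A17α-MHCKO + DOX and at 172 to 238 in A17fl/fl + DOX, while Cox8a was at 102 to 148 throughout.

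The 13 subunits encoded by mitochondrial DNA made up 17.4% to 24.9% of counts and were described beside the nuclear ones. The difference between both sets was not tested. After doxorubicin in A17fl/fl hearts 0 of 13 were positive, with a median of -0.12, while 83 of 86 nuclear members were. In A17α-MHCKO hearts 11 of 13 were positive with a median of 0.11, and between the genotypes 2 of 13 were positive after saline, with a median of -0.17, and 10 of 13 after doxorubicin, with a median of 0.07. For the interaction 13 of 13 were positive, with a median of 0.20. None had an unadjusted p under 0.05 in any of the 5 comparisons by edgeR. Without A17fl/fl + NS replicate 1 the medians were -0.32 for doxorubicin in A17fl/fl hearts and -0.31 between the genotypes after saline, with 0 of 13 positive. At an unadjusted p under 0.05, 3 and 6 of the 13 were then lower, against 919 and 927 of 16406 genes. Without A17α-MHCKO + DOX replicate 1, 12 of 13 were positive for doxorubicin in A17α-MHCKO hearts, with a median of 0.16. Between the genotypes after doxorubicin 12 were then also positive, with a median of 0.15. Without both libraries that stood apart the median of the interaction was 0.45. There, 7 of 13 were higher at an unadjusted p under 0.05, against 3.26% of all genes. The ratio of nuclear to mitochondrially encoded counts was 0.160, 0.157 and 0.126 in A17fl/fl + NS (0.147 ± 0.0190, SD, n = 3), 0.168, 0.194 and 0.195 in A17fl/fl + DOX (0.186 ± 0.0149), 0.165, 0.180 and 0.187 in A17α-MHCKO + NS (0.177 ± 0.0113) and 0.268, 0.172 and 0.169 in A17α-MHCKO + DOX (0.203 ± 0.0563). The A17fl/fl + NS hearts held the 3 lowest ratios of the 12, and the 2 genotypes overlapped after doxorubicin.

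Other gene lists of the pathway were described beside the members. Of 47 assembly factors, 38 were positive after doxorubicin in A17fl/fl hearts with a median of 0.25 and 44 in A17α-MHCKO hearts with a median of 0.26, and 9 and 13 were higher at an unadjusted p under 0.05 with 0 lower, against 4.11% and 3.97% of all genes higher. Of 78 genes of the mitochondrial ribosome, 68 and 73 were positive (medians 0.20 and 0.28), and 15 and 22 were higher by the same limit with 0 lower. The 14 tricarboxylic acid cycle genes had 13 and 14 positive (0.24 and 0.15), with 2 and 1 higher. Among 17 regulators of mitochondrial biogenesis, 10 and 6 were positive and 7 and 11 negative (medians 0.25 and -0.05). Their values ran from -0.34 to 1.03 in A17fl/fl and from -0.45 to 0.49 in A17α-MHCKO hearts. By the same limit, 3 were higher and 0 lower in A17fl/fl and 1 higher and 1 lower in A17α-MHCKO hearts. Ppargc1b, a coactivator of ERR and NRF1, was the first of them in A17fl/fl hearts, at 1.03 with adjusted p = 0.334, and at -0.01 in A17α-MHCKO hearts. Esrra, an ERR receptor, was at 0.38 and 0.26. Cycs and Ndufab1, the carrier cytochrome c and the acyl carrier subunit of complex I, which the name rule leaves out, were at 0.32 and 0.29 in A17fl/fl and at 0.38 and 0.35 in A17α-MHCKO hearts. Their median went from 0.31 to 0.18 in A17fl/fl hearts without A17fl/fl + NS replicate 1. In A17α-MHCKO hearts it went from 0.37 to 0.21 without A17α-MHCKO + DOX replicate 1. The 87 genes of the cytosolic ribosome had a median of -0.05 in A17fl/fl hearts with 34 positive and of 0.28 in A17α-MHCKO hearts with 84 positive. Without A17fl/fl + NS replicate 1 the A17fl/fl comparison gave 38 assembly factors positive with 6 higher and 68 mitochondrial ribosome genes with 11 higher. It gave 10 tricarboxylic acid cycle genes positive with 0 higher and 8 biogenesis regulators with 2 higher, against 4.63% of all genes higher. The median of the biogenesis regulators was then -0.06, with 9 negative. The cytosolic ribosome turned to a median of 0.27 with 80 positive. Without A17α-MHCKO + DOX replicate 1 the A17α-MHCKO comparison gave 5 assembly factors, 2 mitochondrial ribosome genes, 0 tricarboxylic acid cycle genes and 0 biogenesis regulators higher, against 1.76% of all genes, and the cytosolic ribosome had a median of 0.08 with 66 positive.

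The 11 cardiomyocyte markers were mostly positive in the doxorubicin comparisons, with 10 positive and a median of 0.30 in A17fl/fl hearts and 9 positive and a median of 0.37 in A17α-MHCKO hearts. Between the genotypes 6 and 7 were positive, with medians of 0.03 and 0.07. Without A17fl/fl + NS replicate 1 the medians were 0.14 for doxorubicin in A17fl/fl hearts and -0.15 between the genotypes after saline, and without A17α-MHCKO + DOX replicate 1 they were 0.23 for doxorubicin in A17α-MHCKO hearts and -0.05 between the genotypes after doxorubicin. The ratio of member to cardiomyocyte counts was 1.04, 0.647 and 0.741 in A17fl/fl + NS, 0.677, 0.698 and 0.636 in A17fl/fl + DOX, 0.813, 0.805 and 0.874 in A17α-MHCKO + NS and 0.870, 0.698 and 0.712 in A17α-MHCKO + DOX. On this scale the A17fl/fl + DOX hearts overlapped with the A17fl/fl + NS hearts and lay below the A17α-MHCKO + NS hearts, and the 2 A17α-MHCKO groups overlapped. The neutrophil markers summed to 2218, 5.21 and 25.9 CPM in A17fl/fl + NS and 23.6, 18.3 and 8.27 CPM in A17fl/fl + DOX, so that replicate 1 alone set the median of -5.61 of the 5 tested markers, which was -0.11 without it. Of 7 macrophage markers, 6 had negative values after doxorubicin in A17fl/fl hearts, with a median of -0.35, and 3 without that library, with a median of 0.05. The atrial markers summed to 332 to 8361 CPM over the 12 libraries and those of skeletal muscle to 2.42 to 11.5 CPM. Their part in the members' differences was not tested.

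**Figure D5:**
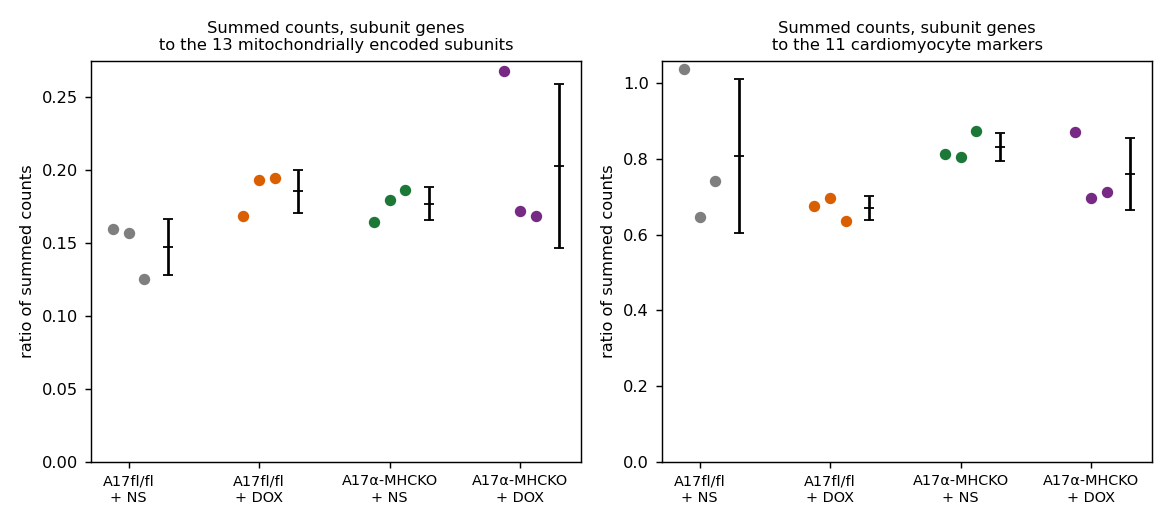
Ratio of the summed counts of the 89 members to those of the 13 mitochondrially encoded subunits (left) and of the 11 cardiomyocyte markers (right) in each library (points), with group mean and SD (n = 3) as black marks and axes from 0. The A17fl/fl + NS hearts hold the 3 lowest values on the left, at 0.126 to 0.160, and the highest value on the right, 1.04, belongs to A17fl/fl + NS replicate 1.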

How the data were processed

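Heart RNA of 12 mice, 3 in each group of the labels, had been sequenced in 1 library per mouse. Replicates were taken as separate mice, as the labels and methods describe them, so p-values cover the spread between these mice. Fragments were aligned by the authors with HISAT2 to GRCm39, with SAMtools 1.3.1 and base calls from CASAVA 1.8, per the labels and methods, and counted with StringTie from stranded paired-end messenger RNA libraries. The authors deposited 1 table of counts per gene, and beside them FPKM values, in which a count is divided by gene length and library total, without a TMM factor. FPKM was used only to compare levels between genes and for isoform ratios, and counts for every test across genes. Mapping rates and duplicates are not given in the sources used here. Fragments of close gene copies and of overlapping genes may have been divided in this counting.

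Genes were filtered with filterByExpr and counts scaled by TMM. A quasi-likelihood model with 4 group means was fitted in edgeR 4.0.16 (R 4.3.3) to 16101 genes, with Benjamini-Hochberg adjustment over all of them, and standard errors were derived from its F statistics. The model was also run on simulated counts, with absolute log2 fold changes of 1 and 2 and no library that stood apart. Changes as small as those of most members were not simulated. Alternatives were DESeq2 1.42.0, limma voom 3.58.1, the likelihood ratio test, other scalings and filters, 2 groups alone, a replicate block and leaving out libraries. Isoform ratios were compared with exact permutation tests in Python 3.11.15. Members and lists were chosen with earlier results of these data known. By rule, the named genes of a comparison were the member of each complex with the smallest p and the 3 members per direction with the smallest p, and beside them the core subunits, isoform sets, untested members and Adam17. The values of 1 core subunit are not reported here. Ndufa8 was chosen after its values were seen. The lists were the core subunits, assembly factors, mitochondrially encoded subunits, biogenesis regulators, tricarboxylic acid cycle, both ribosomes and markers of cell types. The numbers of fragments per library limit precision, at 15950717 to 21725076 counts. Promoters came from RefSeq for GRCm38.p6 and are not in the coordinates of the authors' build.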

Additional observations from a re-analysis of the deposited data

How the results depend on the processing

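Under 11 alternatives, and with single libraries omitted, 0 of 86 members had an adjusted p under 0.05 in each of the 5 comparisons, DESeq2, the likelihood ratio test and limma voom included, although DESeq2 called 151, 41, 174, 3 and 21 genes of the whole table, where edgeR called 0, 0, 3, 1 and 0. Depth was 15950717 counts or more in each library, and the common dispersion was 0.0842.

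The number of members higher at an unadjusted p under 0.05 depended on the setting. After doxorubicin in A17fl/fl hearts it was 8 by limma voom (3.4% of all genes higher). In A17α-MHCKO hearts it was 10 with scaling by total counts (2.04%). For the genotypes after saline it was 18 with total counts (5.39%). For the genotypes after doxorubicin it was 10 by DESeq2 (1.69%). By limma voom 1 member was lower there (1092 of 16101 genes in both directions). For the interaction it was 0 by limma voom, upper quartile scaling and total counts (3.33%, 3.02% and 2.02%). An alternative chosen after seeing the data left out both libraries that stood apart. It gave 23, 10, 18, 2 and 1 in the 5 comparisons in the order above, with 0, 1, 1, 2 and 4 lower. Of all genes, 5.83%, 3.71%, 5.96%, 1.24% and 3.26% were then higher. In both directions there were 1915, 1138, 1960, 442 and 1012 of 16356 genes. The median of the members in A17α-MHCKO hearts after doxorubicin was then 0.090. The cause was not tested.

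Hearts with the same replicate number did not stand out as pairs. Of 18 such pairs, 3 had a correlation of deviations over 0.1. The range was -0.10 to 0.22, against -0.26 to 0.32 for different numbers, and 3 hearts correlated best with their own number. With so few hearts in a group, these correlations cannot show that the hearts were not paired. With a replicate block, 1 member had an unadjusted p under 0.05 for the interaction (920 of 16101 genes). No other count of higher members moved by over 1.5 times.

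With each library left out in turn, members higher at an unadjusted p under 0.05 ran from 5 to 13, 5 to 34, 1 to 12, 2 to 24 and 0 to 3. The shares of all genes higher ran from 2.61% to 9.07%, 1.76% to 4.57%, 2.67% to 8.85%, 0.655% to 2.21% and 2.12% to 7.15%. Members lower ran from 0 to 1, 0 to 1, 0 to 2, 0 to 2 and 0 to 1. The median fold changes of the members ran from 0.20 to 0.33, 0.10 to 0.39, 0.13 to 0.25, 0.03 to 0.32 and -0.18 to 0.13. Sign turned for Cox8b (-0.31 to 0.11) and Cox4i2 (-0.29 to 0.027) after doxorubicin in A17fl/fl hearts, for Ndufa4l2 (-0.25 to 0.059), Uqcrq (-0.43 to 0.16) and Cox8a (-0.10 to 0.051) in A17α-MHCKO hearts, for Ndufa4l2 (-0.63 to 0.026) between the genotypes after saline and for Uqcrq (-0.50 to 0.086), Atp5d (-0.40 to 0.068) and Atp5g1 (-0.11 to 0.043) after doxorubicin. Between the genotypes the log2 ratio of Cox6a2 to Cox6a1 ran from -0.084 to 0.25 and that of Cox7a1 to Cox7a2 from -0.073 to 0.067. Among other alternatives, Cox4i2 after doxorubicin in A17fl/fl hearts was at 0.0048 by limma voom and 0.029 without both libraries, Cox8a in A17α-MHCKO hearts at 0.0031 with upper quartile scaling, and Ndufa4l2 between the genotypes after saline at 0.030 without both libraries. A fit of 2 groups alone does not exist for the interaction. The other 504 values of named genes kept their direction.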

Other observations

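Marker lists of further cell types, not used in the comparisons of the subunit genes, gave these medians. The 7 endothelial markers had a median log2 fold change of 0.30 after doxorubicin in A17fl/fl hearts, with 6 of 7 positive. At an unadjusted p under 0.05, 2 of them were higher, against 4.11% of all genes. In A17α-MHCKO hearts their median was -0.15, with 2 of 7 positive. The 8 markers of pericytes and smooth muscle were at 0.11 and -0.01. The 8 fibroblast markers were at -0.20 and -0.33, with 3 and 0 positive, and the 6 tested adipocyte markers at 0.62 and -0.93. Without A17fl/fl + NS replicate 1 the first of these values was 0.11 for fibroblast markers, with 7 of 8 positive, and 0.15 for adipocyte markers, of which 7 were then tested. The 5 red cell markers were at -0.44 and 0.46. They summed to 3621, 518 and 821 CPM in A17fl/fl + NS and 808, 1934 and 1051 CPM in A17fl/fl + DOX, and the first value was 0.92 without replicate 1 of the saline group. The 5 atrial markers were at -0.24, or -0.83 without that library, and -1.70, and between the genotypes after saline at 0.995, with 5 of 5 positive, or 0.42 with 4 positive without it.

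The adjusted p of the subunit gene Ndufb11 after doxorubicin in A17fl/fl hearts ran from 0.139 to 0.791 over the alternatives, and that of Atp5h from 0.0932 to 0.791. The 43 shorter and 43 longer tested members had medians of 0.24 and 0.28 in that comparison, and of 0.24 and 0.14 between the genotypes after doxorubicin. In the latter, 6 shorter and 0 longer members had an unadjusted p under 0.05, against 2.7% of all genes. Over the 86 members, the correlation of the deviation with gene length ran from -0.36 to 0.47 between libraries, a description across genes.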
